A study of Macaca mulatta with 5 samples.

Results

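Cells expanded with the growth factor FGF4 (stage N2) were compared with the embryoid bodies they came from (stage EB), in a culture of rhesus macaque embryonic stem cells directed towards serotonin neurons. The comparison takes 2 of the 5 arrays of the series, 1 array for each stage. It covers 14132 genes, each read from the probe set with the highest mean over the 5 arrays among probe sets with 1 gene symbol. All stages came from line 366.4, a stem cell line from a flushed preimplantation embryo, and the labels name no genetic change. Undifferentiated cells were grown on mouse embryonic fibroblasts and taken at passage 13 (ESC). Embryoid bodies, which are free-floating aggregates of differentiating cells, were collected after 6 to 8 days. They were then kept for 7 to 9 days in DMEM/F12 with a supplement that is also called N2, giving neurospheres (N1), and for a further 7 to 9 days in the same medium with FGF4, giving the cells of stage N2. The labels call that last sample proliferating serotonin neurons and say that FGF4 was added to expand nestin-positive cells. Both arrays therefore stand on either side of 2 culture steps, and the parts of the supplement, FGF4 and time cannot be told apart. The remaining array holds cells matured further without FGF4 (N3).

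Neural progenitors form from ectoderm under SOX and PAX transcription factors, and Notch ligands and HES repressors hold neighbouring progenitors back from differentiating. Cells that leave this state express proneural factors, then RNA-binding proteins and microtubule proteins of young neurons, and later the proteins of synaptic vesicles. Embryoid bodies form derivatives of all germ layers, among them heart muscle and an endoderm that makes the plasma proteins of yolk sac and liver. FGF4 is a ligand of the FGF receptors, which signal through ERK and induce their own feedback inhibitors of the Sprouty family.

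With 1 array on each side there was no replicate, so no difference has a test, an error or a p-value, and every value below is a single measurement. Signals are array intensities scaled to a 2% trimmed mean of 500, and values under 100 were treated as 100 (the floor) in every ratio. Where only EB or only N2 lay under it, the ratio is a bound and is given as "at least". A gene was measured when it lay above the floor in EB or N2, which held for 10364 genes. Of these, 926 (8.93%) were at least 2-fold higher in N2 and 820 (7.91%) at least 2-fold lower, while 6358 (61.3%) lay within 1.5-fold. The 813 measured genes at the floor in EB could not be called lower, nor the 476 at the floor in N2 higher. Of the higher genes 241, and of the lower genes 85, were of this kind. Such genes enter the list counts and medians below. At 4-fold the split was less even, with 228 genes (2.2%) higher and 87 (0.839%) lower. Over the 10364 genes the log2 ratio had a median of -0.08. Higher genes made up 53.0% of those past 2-fold, against 30.0% (678 higher and 1583 lower) with the arrays scaled to equal medians and 41.8% (752 and 1048) when scaled to the hybridisation controls. Those scalings moved that median to -0.33 and -0.19. Since these are whole cultures, fewer cells of a type and less RNA per cell cannot be told apart.

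The 2 arrays were chosen partly because both have high 3' to 5' ratios of the actin control, a sign of RNA that was degraded or copied incompletely. The signal near the 3' end of actin exceeded that near the 5' end by 15.2-fold in EB and 25.2-fold in N2, against 5.43-fold in N1. For GAPDH the ratio was 2.78 in EB and 7.10 in N2, and for EF1a 0.958 and 1.88, so N2 had the higher ratio for each of the 3 control transcripts. Its part in the results was not tested. The only technical spread these arrays hold is that between probe sets of the same gene. Over 3982 genes with at least 2 measured probe sets, the SD between the brightest pair was 0.519 on the log2 scale. Of 617 such genes whose brightest probe set passed 2-fold, the second probe set moved the same way in 524 (84.9%), passed 2-fold the same way in 265 (42.9%) and passed it the opposite way in 8. Below, "other probe set" means any further measured probe set of a gene, and a bare number beside it is its log2 ratio of N2 over EB.

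**Figure D1:**
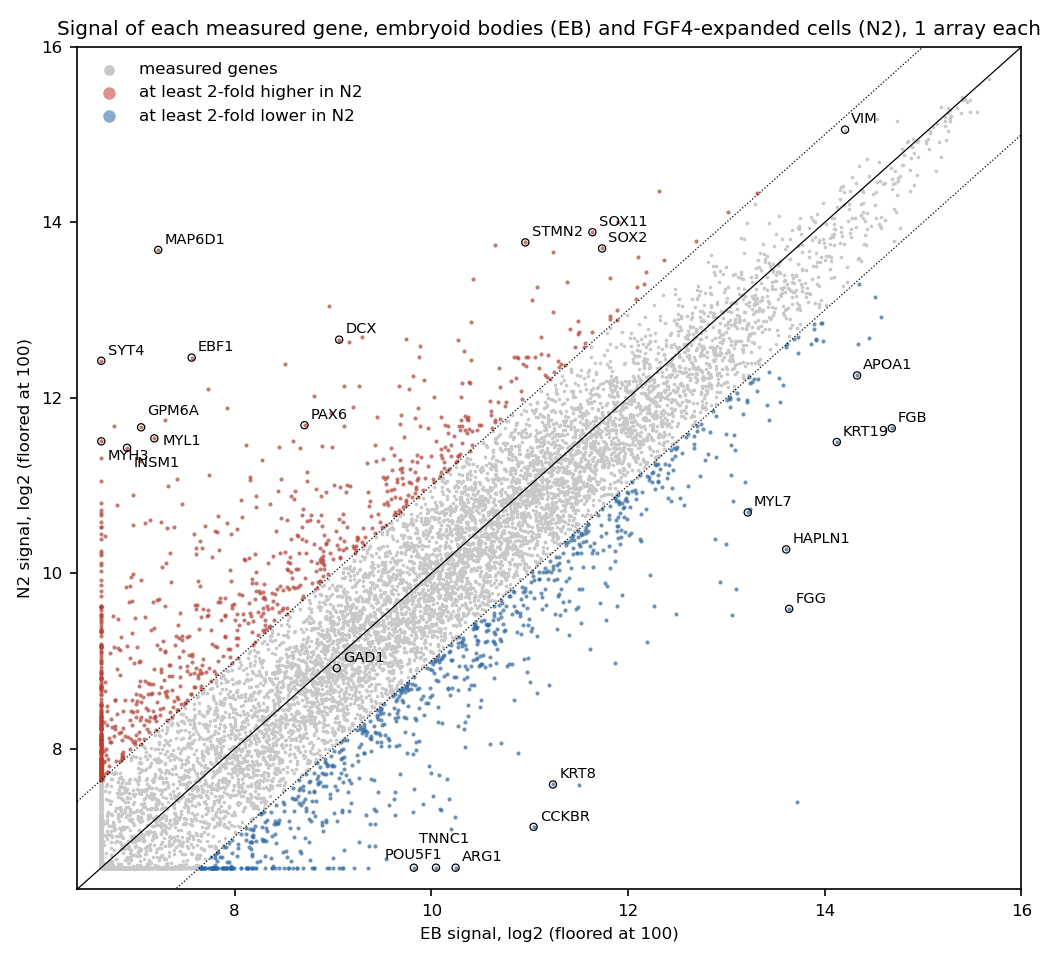
Log2 signal of each measured gene in EB (x axis) and N2 (y axis), both floored at 100, with 1 array for each stage. The solid line marks equal signal and the dotted lines 2-fold; 926 genes lie above the upper dotted line or on it, including MAP6D1, SYT4 and EBF1, and 820 below the lower one or on it, including FGG, KRT8 and CCKBR.

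**Figure D2:**
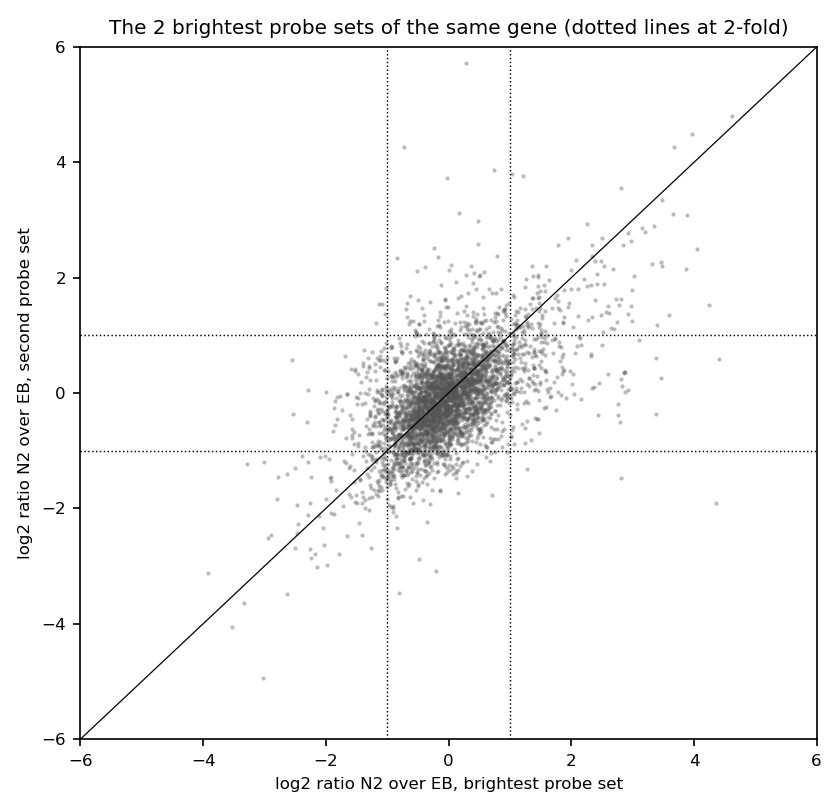
Log2 ratio of N2 over EB on the brightest (x axis) and second brightest (y axis) measured probe set of the same gene, for 3982 genes. Dotted lines mark 2-fold and the solid line equal ratios; most points lie in the central square, and few lie past 2-fold on opposite sides.

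Neuronal genes held the highest medians of the 50 lists. Of the list of neuronal cytoskeleton and RNA-binding genes, 11 were at least 2-fold higher and 0 lower, of 14 measured (median log2 ratio 2.58), beside 8.93% and 7.91% of all measured genes. ELAVL4, which stabilises messenger RNAs of young neurons, was 242 in EB and 3779.8 in N2 (76.2 in ESC, 1344 in N1, 4489.5 in N3). It was 15.6-fold higher in N2 than in EB, and its other probe set had a log2 ratio of 4.50. Its relative ELAVL2 was 14.7-fold higher (364 in EB and 5345 in N2; other probe set 2.15). DCX, a microtubule protein of migrating neurons, was 535 in EB and 6488 in N2 (186 in ESC, 2222 in N1, 10607 in N3), which makes it 12.1-fold higher. STMN4, a microtubule regulator, was at least 12.2-fold higher (5.33 in EB and 1224 in N2). STMN2, from the same family, stood at 1986 in EB and 13995 in N2 and had already reached 12594 in N1. TUBB3, the neuronal tubulin, was 2.74-fold higher (663 in EB and 1819 in N2). It stood at 3684 in ESC and 2852 in N1, both above its level in N2. All 3 measured probe sets of TUBB3 passed 2-fold, the other log2 ratios being 1.86 and 3.52. DPYSL3, which acts in growth cones, was 7.70-fold higher (285 in EB and 2194 in N2).

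Genes of secretory vesicles and transmitter release ran the same way: 8 were at least 2-fold higher and 0 lower, of 10 measured (median 1.81). Among the higher members, SYT4, SCG2, CHGB, RAB3A and CPLX2 lay under the floor in EB. They were measured through N2 alone and could not be called lower. SYT4, a synaptotagmin of dense-core vesicles, was 38.2 in EB and 5489.8 in N2 (12.2 in ESC, 1149 in N1, 8174 in N3), at least 54.9-fold higher in N2 than in EB. SCG2 and CHGB, both granin proteins packed into such vesicles, were below the floor in EB and reached 936 and 711 in N2. SYT1, the calcium sensor of fast release, was 5.37-fold higher (329 in EB and 1768 in N2), although its other probe sets gave log2 ratios of 0.00, 2.81 and 2.07. Its signal in ESC, 4177, was above that in N2. RAB3A, a vesicle GTPase, was 34.8 in EB and 390.3 in N2, and with a floor of 200 its log2 ratio was 0.96. The summed signal of the 12 members with a probe set was 1178 in EB and 11295 in N2.

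Transcription factors that specify neurons were higher for 11 and lower for 0 of 15 measured genes (median 2.04). EBF2, LHX9 and MYT1L were under the floor in EB and so could not be called lower. A further 10 members with a probe set were not above the floor on either array. EBF1, a factor of newly born neurons, was 189 in EB and 5630.1 in N2 (49.8 in ESC, 2011 in N1, 6618 in N3), a difference of 29.8-fold between EB and N2. Its relative EBF2 was at least 14.7-fold higher (86.03 in EB and 1471 in N2). INSM1, a factor of neuroendocrine cells and neuron precursors, was 23.02-fold higher (119.9 in EB and 2759.8 in N2) and had reached 1668 in N1. LHX9, a LIM homeobox factor, was at least 21.2-fold higher (11.4 in EB and 2125 in N2), but its other probe set had a log2 ratio of 0.59 and its remaining probe sets were below the floor on both arrays. ISL2, a factor of motor and sensory neurons, was 5.12-fold higher, and MYT1L, a neuronal zinc finger factor, at least 5.42-fold higher. MYT1L was above the floor on 1 of its 3 probe sets. SOX11, which acts in committed neuron precursors, was 3187 in EB and 15168 in N2, with log2 ratios of 2.25, 1.90 and 1.86 on its 3 measured probe sets.

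In the list of neural stem cell and radial glia genes, 7 were at least 2-fold higher and 0 lower, of 12 measured (median 1.40). PTPRZ1 and POU3F1, among the higher ones, lay under the floor in EB and could not be called lower. POU3F1 was named after its values were seen. PAX6, a master factor of neural stem cells, was 419 in EB and 3301 in N2 (753 in ESC, 306 in N1, 3322 in N3). EB and N1 were thus its lowest stages, and N2 was 7.88-fold higher than EB (other probe set 2.64). SOX2, shared by stem cells and neural progenitors, was 3413 in EB and 13336 in N2 (19736 in ESC, 5056 in N1, 14978 in N3). N2 was 3.91-fold higher than EB on the brightest probe set of SOX2, and the other probe sets had log2 ratios of 0.28 and 1.56. GPM6A, a membrane glycoprotein of neurons and radial glia, was 24.5-fold higher (132 in EB and 3246 in N2; other probe set 4.81). SOX3, of the same SOX subgroup as SOX2, was 3.76-fold higher (651 in EB and 2445 in N2), on the only measured one of its 2 probe sets. Like SOX2 it was higher still in ESC, at 4135. The glutamate transporter gene SLC1A3 was 2.79-fold higher on its brightest probe set and had a log2 ratio of -0.70 on the other. VIM, an intermediate filament of progenitors and mesenchyme, was 18920.4 in EB and 34102 in N2, a log2 ratio of 0.85 that did not reach 2-fold. The progenitor markers SOX1, NES and MSI1 were not analysed here, since the annotation used here pairs no probe set with those symbols alone.

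Of Notch pathway genes, 7 were at least 2-fold higher and 0 lower, of 20 measured (median 0.76). HES5, a repressor that Notch switches on in neural progenitors, was 95.01 in EB and 1203 in N2 (5.26 in ESC, 274 in N1, 2586 in N3), at least 12.03-fold higher in N2 than in EB. HES6, which counteracts HES1, was 6.35-fold higher (297 in EB and 1886 in N2). The ligand genes DLL1 and JAG1 were 4.04-fold higher and 2.35-fold higher, with log2 ratios of 0.15 and 1.10 on their other probe sets. JAG1 had a log2 ratio of 0.96 with equal medians. DLL3, a further ligand of the family, was 2.51-fold higher (139 in EB and 348 in N2), but 0.80 on the log2 scale with a floor of 200. HES1, the repressor of many tissues, was 2.06-fold higher (326 in EB and 672 in N2) and fell short of 2-fold with quantile normalisation, equal medians or hybridisation controls (log2 ratios of 0.86, 0.77 and 0.93).

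Axon guidance and adhesion genes were higher for 10 and lower for 0 of 22 measured genes (median 0.79). L1CAM, an adhesion protein of axons, was 7.48-fold higher (286 in EB and 2140.2 in N2), but stood at 2239 in ESC. The Eph receptor gene EPHA3 was 6.51-fold higher (948 in EB and 6172 in N2). EPHA5, another receptor for ephrins, was at least 4.41-fold higher (24.7 in EB and 441 in N2), with 0.95 on its other probe set. The neurotrophin receptor gene NTRK3 was at least 6.51-fold higher (87.5 in EB and 651 in N2), but its other probe sets had log2 ratios of 0.30 and 1.11. SEMA3C, a secreted semaphorin, was 3.15-fold higher on one probe set and had a log2 ratio of -0.06 on the other. NRXN3, a presynaptic adhesion protein, was 2.56-fold higher (other probe set 1.65). Protocadherins, a family of neural adhesion proteins, were higher for 7 and lower for 1 of 16 measured genes. Among them PCDH8 and PCDHB11 were at least 7.39-fold higher and 7.38-fold higher. PCDH8, PCDHB3, PCDHB4 and PCDHB5 lay under the floor in EB and could not be called lower. PCDHA5 counted as higher on its brightest probe set, but its other probe sets had log2 ratios of -1.18, -0.28 and 0.15. All protocadherins given here were named after their values were seen.

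Ion channel genes were higher for 10 and lower for 0 of 29 measured genes (median 0.42). Higher members under the floor in EB, such as SCN3A, KCNH2, KCNH8 and SCN2A, could not be called lower. The summed signal of the 42 members with a probe set was 14843.5 in EB and 16094.3 in N2. SCN3A, the sodium channel of embryonic neurons, was at least 16.9-fold higher (34.1 in EB and 1694 in N2), and CACNA2D2, an auxiliary calcium channel subunit, 5.39-fold higher (115 in EB and 620.2 in N2). The potassium channel gene KCNH8 was at least 4.18-fold higher (92.5 in EB and 418 in N2). SCN3B, a sodium channel beta subunit, was 3.02-fold higher (other probe set 2.20). Few transmitter genes were measured, because most of them stayed below the floor on both arrays or had no probe set. Of 8 GABA neuron genes with a probe set 5 were measured, and 3 of those were higher. GABRB1, a receptor subunit among the higher ones, lay under the floor in EB and could not be called lower. GAD2, an enzyme that makes GABA, was 662 in EB and 1737 in N2 (2.62-fold; other probe set 0.72), while GAD1, the other such enzyme, was 526 in EB and 484 in N2, with no 2-fold difference on either of its probe sets. DLX1, a factor of GABA neurons, was 7.35-fold higher on one probe set and had a log2 ratio of 0.02 on the other. Of the glutamate list, 3 of 5 measured members were higher, all of them receptor subunits. Among these, GRIA4 and GRIK2 lay under the floor in EB and could not be called lower. The median of that list ranged from 0.04 to 1.95 over the settings. Its 10 members with a probe set had a summed signal of 4232 in EB and 4521 in N2. GRIA4 was at least 4.66-fold higher (55.6 in EB and 466 in N2), and GRIA1 3.89-fold higher (131 in EB and 509 in N2). GRIK2 was at least 3.35-fold higher on its brightest probe set and had a log2 ratio of -0.30 on the other. In the list of catecholamine, acetylcholine and peptide neurons, 0 of 9 measured members were lower and 1 was higher (11.1%, beside 8.93% of all measured genes). This was NPY, a neuropeptide, which was at least 3.30-fold higher (89.97 in EB and 330.4 in N2) and had a log2 ratio of 0.72 with a floor of 200.

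The label of stage N2 names serotonin neurons, but the genes that define them were not higher in it than in EB. TPH1 and TPH2, the enzymes that begin serotonin synthesis, were 23.3 and 16.2 in EB and 4.25 and 5.03 in N2, all below the floor. FEV and LMX1B, transcription factors of these neurons, were 89.6 and 28.8 in EB and 65.98 and 37.3 in N2, also below it. On the 5 arrays FEV passed 100 in ESC and N1 only, at 113 and 121, and TPH1, TPH2 and LMX1B on none. SLC18A2, the vesicular monoamine transporter gene, was 189 in EB and 141 in N2. MAOA, which breaks serotonin down, was 791 in EB and 779.8 in N2. Of 7 measured members of the list, 0 were at least 2-fold higher and 2 lower. GCH1, needed for the cofactor of serotonin synthesis, was 3.40-fold lower (917 in EB and 269.6 in N2), and GATA3, a factor of serotonin neurons and of trophoblast, 2.72-fold lower (3911 in EB and 1436 in N2; other probe set -1.49). GATA2 was 203 in EB and 128 in N2, and its other probe sets gave 0.23 and -1.27. SLC6A4, DDC and NKX2-2 were not analysed here. The median of the list was -0.43 and ranged from -0.68 to -0.27 over the settings tried.

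**Figure D3:**
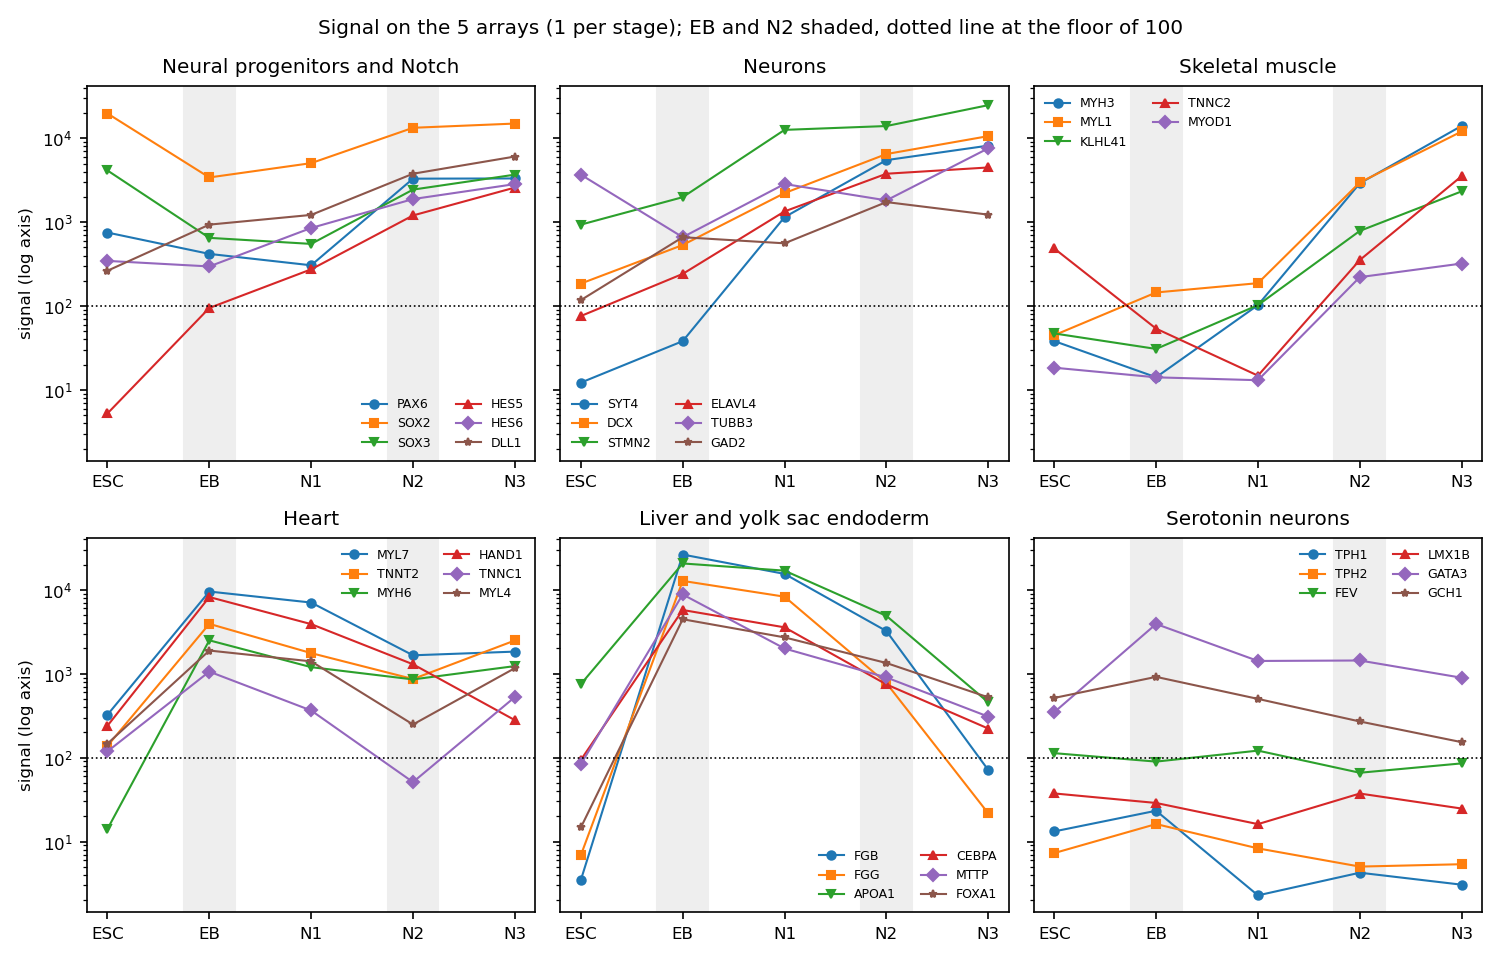
Signal on each of the 5 arrays, 1 array for each stage (x axis, in order of culture), on a logarithmic y axis; the shaded columns are EB and N2 and the dotted line is the floor of 100. Neural, neuronal and skeletal muscle genes lie higher in N2 than in EB, heart and endoderm genes lower, and TPH1, TPH2 and LMX1B lie under the floor throughout.

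Genes of the FGF family, its receptors and binding proteins were higher for 6 and lower for 0 of 15 measured genes. The median was 0.16, which became -0.10 with quantile normalisation and ranged from -0.11 to 0.84 over the settings. FGFR2, a receptor, was 4665 in EB and 11035 in N2 (2762 in ESC, 6166 in N1, 6968 in N3). N2 was thus 2.37-fold higher than EB, with 1.73, 0.80, 2.07 and 1.83 for the other 4 probe sets, although the brightest stood at 0.97 with equal medians. FGFR1 and FGFR3 did not reach 2-fold, at 260.3 and 208 for the first and 1892 and 1512 for the second in EB and N2. FGFBP3, which releases FGFs from the matrix, was 6.06-fold higher (356 in EB and 2155 in N2), but its other probe set had a log2 ratio of 0.34. FGF13, which binds sodium channels inside neurons, was 3.44-fold higher (1343 in EB and 4623 in N2). Its relative FGF14 was 3.30-fold higher (other probe sets 0.65 and 1.21). Both count among the 6 higher genes but are not secreted ligands. The secreted ligand gene FGF18 was 2.85-fold higher (other probe set 1.04). FGF4 itself, the factor added to the medium, was 159 in EB and 78.9 in N2 as a transcript. Among feedback and response genes, 1 of 15 measured members was higher and 1 lower, shares below those over all measured genes. SPRY2, a Sprouty inhibitor, was 1959.8 in EB and 5350.2 in N2 (3469.6 in ESC, 1791 in N1, 8842 in N3), 2.73-fold higher in N2, while its other probe set had a log2 ratio of -0.45. SPRY4 was 587 in EB and 416 in N2. MYC, a growth factor response gene, was 2.17-fold lower (626 in EB and 289 in N2).

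WNT pathway genes were higher for 11 and lower for 3 of 38 measured genes (28.9% and 7.89%, beside 8.93% and 7.91% of all measured genes). Among the higher ones were secreted WNT inhibitors. WIF1 was 8.04-fold higher (123 in EB and 991 in N2), DKK2 at least 7.94-fold higher (89.9 in EB and 794 in N2) and SFRP2 5.52-fold higher (1351 in EB and 7458 in N2). LGR5, a receptor for R-spondins and a WNT target, was 5.66-fold higher (other probe set 0.83), and RSPO1, an R-spondin, 4.45-fold higher (129 in EB and 574 in N2). WNT3, a ligand, was 3.46-fold higher (other probe set 1.59); it was named after its values were seen. Lower were TCF7, SP5 and FZD4, of which SP5, a WNT target, was 2.90-fold lower (1429 in EB and 493 in N2), and FZD4, a receptor, 2.52-fold lower. SP5 and FZD4 were named after their values were seen. For TCF7, a nuclear effector, the brightest probe set was 3.52-fold lower and the other had a log2 ratio of -0.45.

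In the TGF-beta and BMP pathway 6 of 30 measured members were higher and 5 lower, with different members on each side. BMP2, a ligand, was 3740.2 in EB and 502 in N2 (91.9 in ESC, 945 in N1, 260.4 in N3), 7.44-fold lower in N2 than in EB (other probe set -2.47). BMP4, a second ligand, was 2.81-fold lower (3575 in EB and 1271 in N2), and the BMP-induced inhibitor genes BAMBI and SMAD6, named after their values were seen, were 2.47-fold lower and 2.31-fold lower. INHBA, a subunit of activin, was at least 16.5-fold higher (82.2 in EB and 1655 in N2; other probe set 2.50), and TGFB3 3.88-fold higher (132 in EB and 511 in N2). Retinoic acid genes were split as well, with 5 of 16 measured members higher and 5 lower. CRABP1 and CRABP2, both proteins that bind retinoic acid in the cell, differed in opposite directions. CRABP1 was 3811 in EB and 16495 in N2 (4.33-fold higher) and CRABP2 11041 in EB and 3433 in N2 (3.22-fold lower). RDH10, an enzyme on the route to retinoic acid, was 2.74-fold higher (other probe sets 1.16, 1.75 and 2.0). ALDH1A2, which makes retinoic acid and was named after its values were seen, was 2.38-fold higher (1179.6 in EB and 2812 in N2). CYP26A1, which degrades it and was named in the same way, was 2.38-fold lower (806 in EB and 338 in N2).

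HOX genes mark position along the body axis, but which cells of these whole cultures express them was not tested. Of groups 1 to 5, 2 of 8 measured members were higher and 0 lower (median 0.44), namely HOXA5 (2.63-fold, 1242 in EB and 3267 in N2) and HOXA2 (at least 2.52-fold, and 0.33 on the log2 scale with a floor of 200). Of groups 6 to 13, which mark trunk and tail levels, 4 of 14 were higher and 1 lower. HOXD10 was 3.57-fold higher (843 in EB and 3006 in N2; other probe sets 1.17 and 0.80), and HOXA10 2.51-fold higher (1202 in EB and 3019 in N2; other probe set 0.82). HOXC10 and HOXD13 were the other higher ones, with log2 ratios of 0.68 and 0.23 with a floor of 200. HOXD13, under the floor in EB, stood at 0.38 on its other measured probe set. HOXD9 was 2.06-fold lower (485 in EB and 235 in N2). The median of this group was 0.27, and -0.01 with equal medians. Among forebrain, midbrain and eye genes 0 of 9 measured members passed 2-fold in either direction. In the ventral hindbrain list BOC, a co-receptor for Sonic hedgehog, was 3.34-fold higher (2421 in EB and 8081 in N2), with 0.94 on its other probe set. FOXA1, a factor of the floor plate and of endoderm, was 3.32-fold lower (4456 in EB and 1341 in N2).

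Neural crest genes were higher for 4 and lower for 0 of 16 measured genes (median 0.50). TFAP2A, an early crest and ectoderm factor, was 4.09-fold higher (1351 in EB and 5526 in N2; other probe set 1.15). TFAP2B and SOX10, also factors of the crest, were 4.45-fold higher and 3.59-fold higher, but their other probe sets stood at -0.10 and 0.33. Glial genes were higher for 4 and lower for 1 of 11 measured genes (median 0.44), and SOX10 is counted among these 4 too. The summed signal of the 14 glial genes with a probe set was 33831.8 in EB and 30148.5 in N2. S100B and SLC1A2 lay under the floor in EB and could not be called lower, nor ALDH1L1, under it in N2, higher. S100B, a calcium-binding protein of astrocytes, was at least 7.41-fold higher (96.3 in EB and 741 in N2), and SLC1A2, an astrocyte glutamate transporter, at least 6.53-fold higher (99.4 in EB and 653 in N2). ALDH1L1, another astrocyte marker, was at least 3.87-fold lower (387 in EB and 79.8 in N2), and -0.95 on the log2 scale with a floor of 200.

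Several skeletal muscle genes were among the largest differences. MYH3, the embryonic skeletal myosin heavy chain, was 14.2 in EB and 2905 in N2 (38.3 in ESC, 103 in N1, 14054 in N3), at least 29.1-fold higher in N2 than in EB. MYL1, a fast skeletal light chain, was 145 in EB and 2974 in N2 (44.99 in ESC, 188 in N1, 12049 in N3), 20.5-fold higher. KLHL41, which maintains sarcomeres, was at least 7.87-fold higher (30.9 in EB and 787 in N2), and TNNC2, the calcium sensor of fast muscle, at least 3.54-fold higher (53.9 in EB and 354 in N2). MYOD1, the factor that commits cells to skeletal muscle, was 14.2 in EB and 221 in N2, with 322 in N3. Its ratio of at least 2.21-fold lay under 2-fold with hybridisation controls (0.97 on the log2 scale) and with a floor of 200 (0.15). MYOG was not analysed here. In the list of skeletal muscle contraction, 7 were at least 2-fold higher and 6 lower, of 30 measured (median -0.02, and 0.14 with a floor of 50), and its summed signal was 51981 in EB and 51386 in N2. The lower ones, apart from ACTN3, an actinin of fast fibres, are also used by heart or slow muscle, among them TNNT1 and TNNI1. TNNT1 had a log2 ratio of -0.11 on its other probe set. TNNC1, the slow and cardiac troponin C, was 1058 in EB and 51.05 in N2 (119 in ESC, 364 in N1, 526 in N3), at least 10.6-fold lower in N2. MYL3 was at least 3.96-fold lower (396 in EB and 56.8 in N2) and MYL4, an atrial and embryonic light chain, 7.61-fold lower (1888 in EB and 248 in N2). All 3 of these were lower in N2 than in N1 as well, while MYL4 stood at 1164 in N3. TNNC2, MYL3, ACTN3, TNNT1 and TNNI1 were named after their values were seen. Muscle and nerve cells share some of the genes described here, such as RBFOX1, and the part of muscle cells in those differences was not tested.

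Of heart genes, 9 of 18 measured members were at least 2-fold lower in N2 and 3 higher (median -0.88). MYL7, the atrial light chain, was 9531 in EB and 1656 in N2 (324 in ESC, 7044 in N1, 1833 in N3), 5.75-fold lower in N2 than in EB. TNNT2, cardiac troponin T, was 4.55-fold lower (3926 in EB and 864 in N2; other probe set -2.79). MYH6, an atrial myosin, was 2.92-fold lower (2498 in EB and 855 in N2), with -0.88 on its other probe set. HAND1, a factor of heart and extraembryonic mesoderm, was 6.33-fold lower (8193 in EB and 1295 in N2). POPDC2, a membrane protein of heart muscle, was 4.37-fold lower (793 in EB and 181 in N2). The higher ones were KCNH2, ISL1 and TBX5. KCNH2, a potassium channel of heart and neurons, was at least 4.48-fold higher on one probe set and 0.84 on the log2 scale on the other, and ISL1, which also acts in motor and sensory neurons, was 2.58-fold higher (1859 in EB and 4794 in N2). TBX5, a heart and forelimb factor named after its values were seen, was 2.50-fold higher (148 in EB and 370.2 in N2). The summed signal of the 21 members with a probe set was 38569 in EB and 16326 in N2. Troponin genes as a family followed the same split on their brightest probe sets, with 5 of 6 measured members lower and TNNC2 higher.

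Endothelial genes had the lowest median of the 50 lists, at -1.15. Among 16 measured, 9 lay at least 2-fold lower in N2 and 1 higher, and the summed signal of the 26 with a probe set was 17208 in EB and 8423 in N2. PECAM1, an adhesion protein of vessels, was 4.30-fold lower (1291 in EB and 300.3 in N2; other probe sets -0.79 and -2.13). SOX17, a factor of vessels and endoderm, was 4.88-fold lower (690.2 in EB and 142 in N2; other probe set -1.20). For CDH5, the vessel cadherin, and TEK, the angiopoietin receptor, the brightest probe sets were 3.62-fold lower and 3.21-fold lower. Their other probe sets had log2 ratios of -0.13 and 0.64. MMRN1, a protein of platelets and endothelium, was the 1 higher member (472 in EB and 1622 in N2, 3.43-fold). Of red cell genes 1 of 8 measured members was lower (12.5%, beside 7.91% of all measured genes). This was ALAS2, the first enzyme of red cell haem synthesis (789 in EB and 173 in N2, 4.57-fold). HBE1, the embryonic haemoglobin gene, was 224 in EB and 118 in N2 (16.7 in ESC, 2077 in N1, 14.6 in N3), so its high stage was N1 and EB and N2 differed by 1.90-fold. White cell genes were higher for 3 and lower for 1 of 8 measured genes. CD68, a lysosomal protein of macrophages, was 5.81-fold higher (299 in EB and 1734 in N2) and CD14, a receptor of monocytes, 3.65-fold lower (526 in EB and 144 in N2). Mesoderm genes were lower for 4 and higher for 1 of 11 measured genes. FOXF1, a factor of lateral mesoderm, was 3.55-fold lower (407 in EB and 114 in N2).

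Endoderm factors were lower for 10 and higher for 1 of 19 measured genes (median -1.04). CEBPA, a factor of liver and fat cells, was 5742 in EB and 745 in N2 (93.9 in ESC, 3568 in N1, 222 in N3), 7.71-fold lower in N2 than in EB, with log2 ratios of -1.16 and -2.51 on its other probe sets. CDX2, a factor of gut and trophoblast, was 5.56-fold lower (3138 in EB and 565 in N2; other probe set -1.95). FOXA3, a liver and gut factor, was 4.68-fold lower (664 in EB and 142 in N2). CREB3L3, a membrane-bound factor of liver and intestine, was 6.97-fold lower (1100.3 in EB and 158 in N2; other probe set -1.84). GATA6, an endoderm and heart factor named after its values were seen, was 2.06-fold lower (6158 in EB and 2996 in N2).

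Plasma proteins made by liver and yolk sac were lower for 11 and higher for 2 of 33 measured genes (median -0.55). All 3 fibrinogen chains were lower. FGB was 26301 in EB and 3222 in N2 (3.48 in ESC, 15461 in N1, 71.2 in N3), 8.16-fold lower in N2 than in EB (other probe set -4.95). FGG was 12758 in EB and 773 in N2 (6.87 in ESC, 8274 in N1, 21.7 in N3), 16.5-fold lower. FGA was 4799.6 in EB and 1011 in N2, 4.75-fold lower, with log2 ratios of -1.46 and -1.41 on its other probe sets. PLG, the precursor of the clot-dissolving enzyme plasmin, was 4.14-fold lower (other probe sets -2.35 and -2.41), and SERPINC1, antithrombin, 3.57-fold lower (other probe set -1.68). AFP, the fetal plasma protein, did not reach 2-fold (601 in EB and 410.3 in N2). Of lipid transport genes 5 of 14 measured members were lower and 1 higher. APOA1, the main protein of high-density lipoprotein, was 20596 in EB and 4889.6 in N2 (751 in ESC, 16909 in N1, 456 in N3), 4.21-fold lower. MTTP, which loads lipid onto apolipoprotein B, was 9.75-fold lower (8791 in EB and 902 in N2; other probe set -1.22). APOM, a minor lipoprotein, was 7.87-fold lower (4669.6 in EB and 593 in N2), and APOE, a lipid carrier of liver and glia, 4.72-fold lower with log2 ratios of -2.24, -2.36 and -2.86 on its 3 probe sets. FABP1, the liver fatty acid binding protein, was 5.53-fold lower (other probe set -2.43). APOH, a phospholipid-binding plasma protein, was at least 2.754-fold higher, and had a log2 ratio of 0.46 with a floor of 200. The list median of 0.03 was -2.07 with that floor, which left out the dim members, and turned negative also with quantile normalisation, equal medians and hybridisation controls.

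Metabolic enzymes and transporters of liver and gut were lower for 9 and higher for 2 of 19 measured genes (median -0.54). ARG1, the last enzyme of the urea cycle, was 1216 in EB and 94.4 in N2 (56.4 in ESC, 389 in N1, 127 in N3), at least 12.2-fold lower in N2. CUBN and LRP2, partner receptors for protein uptake in yolk sac and kidney, were at least 5.36-fold lower and 3.29-fold lower, LRP2 with a log2 ratio of -1.95 on its other probe set. GAMT, which makes creatine, was 4.26-fold lower (2943 in EB and 692 in N2). The summed signals were 79013 in EB and 34334 in N2 for the 45 plasma protein genes with a probe set, 51089.9 in EB and 18512 in N2 for the 17 of lipid transport and 33192 in EB and 18557 in N2 for the 27 of metabolism.

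Epithelial genes were lower for 9 and higher for 1 of 20 measured genes (median -0.89). KRT19, a keratin of simple epithelia, was 17852 in EB and 2889 in N2 (1954 in ESC, 7979 in N1, 1118 in N3). Its 3 measured probe sets had log2 ratios of -2.63, -4.59 and -3.49. KRT8 was 2414 in EB and 193 in N2, 12.5-fold lower, whereas KRT18, which pairs with it in filaments, was 889.9 in EB and 869 in N2. EPCAM, an epithelial adhesion protein, was 3.44-fold lower (6065 in EB and 1763 in N2). S100A14, a calcium-binding protein of epithelia, was 4.96-fold lower on its brightest probe set and -0.50 on the log2 scale on the other. CRB3, of the apical polarity complex, was 3.39-fold lower (474 in EB and 139.9 in N2). ST14, a membrane protease, was the higher one, at 3.95-fold, but its other probe sets had log2 ratios of 0.38 and -0.67. Trophoblast and amnion genes were lower for 4 and higher for 2 of 11 measured genes. PGF, the placental growth factor gene, was 4.51-fold lower (1008 in EB and 223 in N2), and CDX2, HAND1 and GATA3, described above, also belong to this list. Its higher members were TFAP2A and ISL1, both described above.

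Matrix genes were higher for 11 and lower for 0 of 31 measured genes (median 0.67). COL12A1, a collagen on the surface of collagen I fibrils, was 156 in EB and 3432 in N2 (1324 in ESC, 468 in N1, 5514 in N3), 21.9-fold higher in N2. ASPN and OGN, small proteoglycans of connective tissue, were at least 14.8-fold higher and at least 10.97-fold higher, OGN with a log2 ratio of 2.28 on its other probe set. COL1A2, a chain of collagen I, was 3.46-fold higher (other probe set 2.57). COL1A1, the partner chain, was 2.92-fold higher (3604 in EB and 10541 in N2). The summed signal of the list was 144966 in EB and 189502 in N2. Of 28 measured collagen genes 10 were higher and 2 lower. In the list of cartilage and bone, 5 of 16 measured members were higher and 2 lower. COL11A1, a cartilage collagen, was 4.24-fold higher (other probe set 2.31). HAPLN1, which links hyaluronan to proteoglycans, was the largest lower one there. It stood at 12494 in EB and 1237 in N2 (4.001 in ESC, 3596 in N1, 518 in N3), and its 3 probe sets had log2 ratios of -3.34, -3.64 and -3.43. LAMA4, a laminin of vessels and mesenchyme, was 8.07-fold higher (310.3 in EB and 2505 in N2), while LAMA1, an early embryonic laminin, was 2.09-fold lower (3024 in EB and 1447 in N2). ACTG2, an actin of smooth muscle, was 10.5-fold higher (629 in EB and 6600.3 in N2), with 1.18 on its other probe set. It was the 1 of 11 measured smooth muscle genes past 2-fold (9.09%, beside 8.93% of all measured genes higher).

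**Figure D4:**
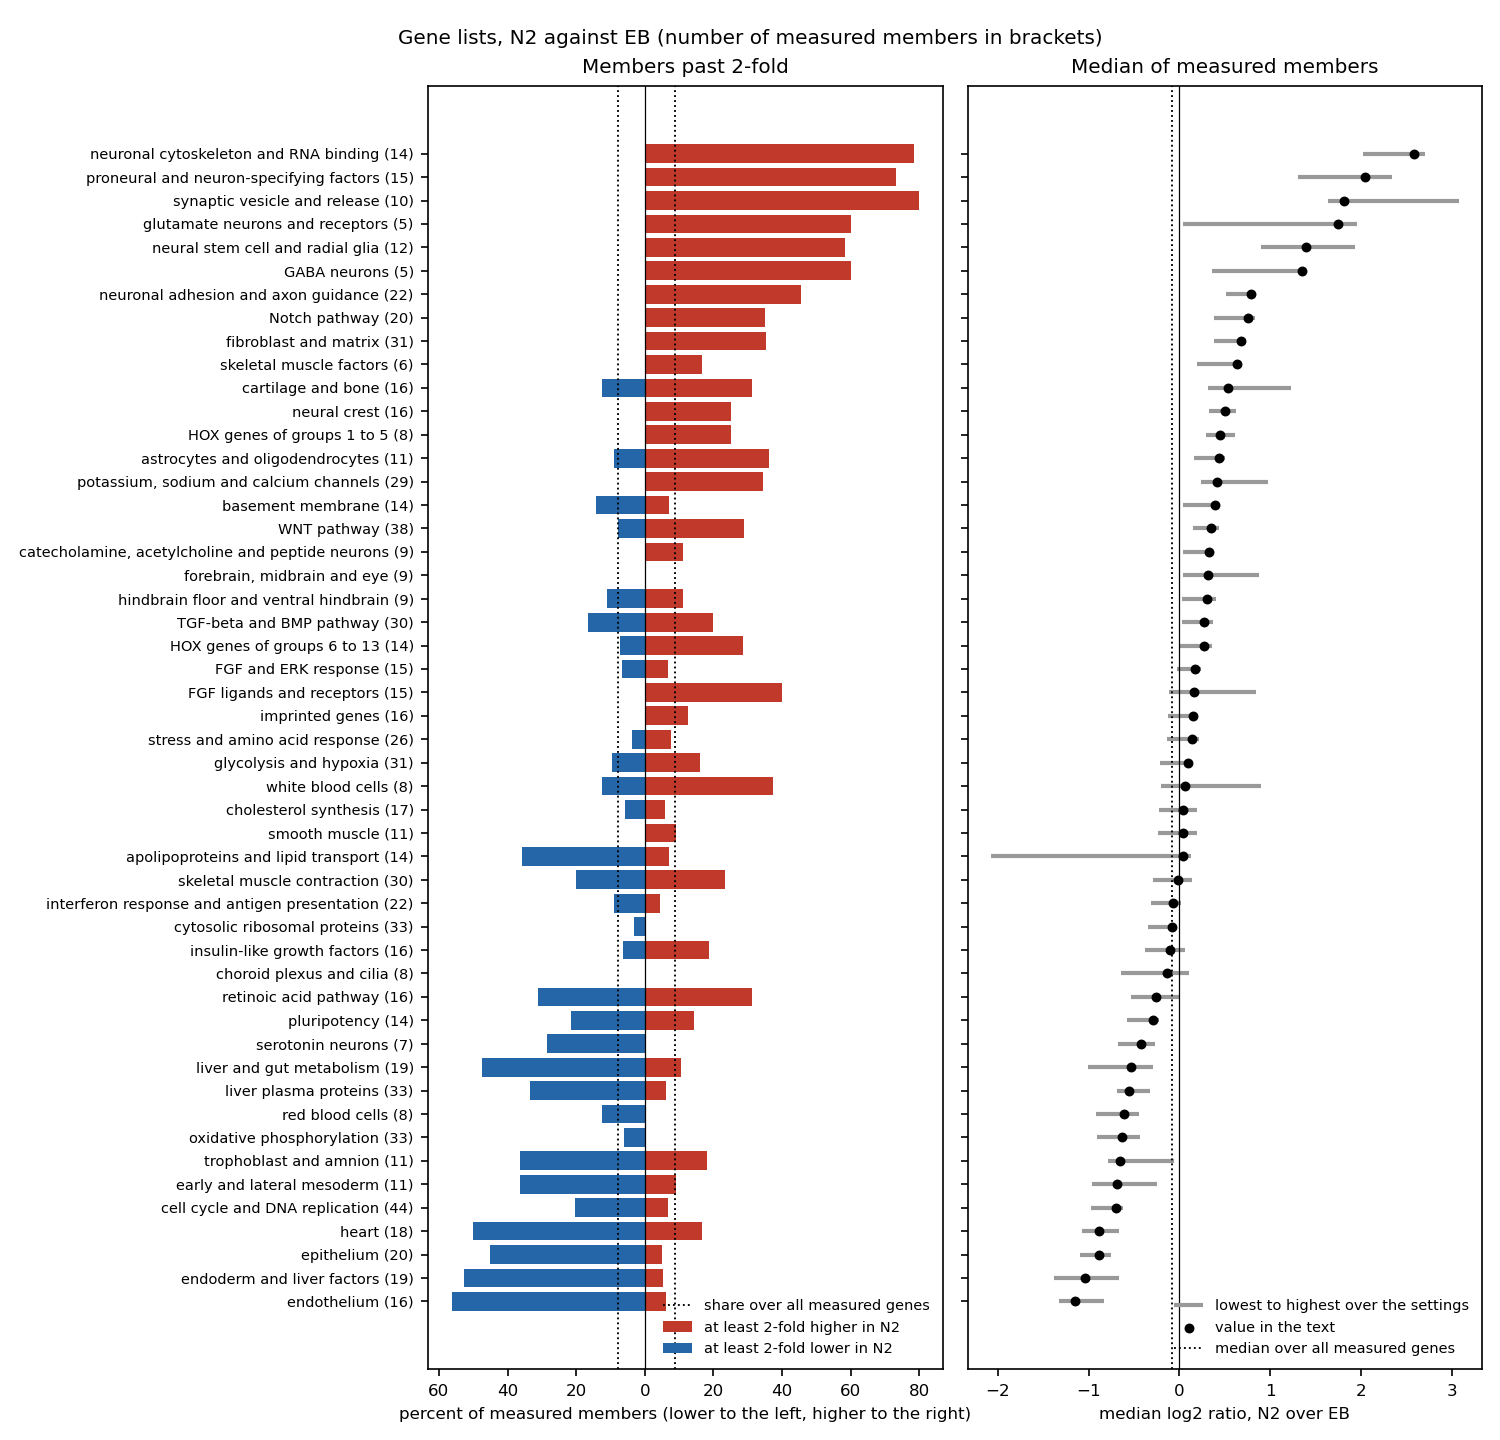
Left, the share of measured members of each gene list at least 2-fold higher (bars to the right) or lower (bars to the left) in N2 than in EB, with dotted lines at the shares over all measured genes, 8.93% and 7.91%. Right, the median log2 ratio of each list (point) with its range over the settings tried (grey bar), beside the median of all measured genes at -0.08; neuronal lists lie at the top, and endothelium, endoderm and liver factors, epithelium and heart at the bottom.

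Of pluripotency genes 3 of 14 measured members were lower in N2 than in EB and 2 higher. POU5F1, the core factor of pluripotent cells, was 906 in EB and 80.3 in N2 (28621 in ESC, 249 in N1, 14.7 in N3), at least 9.06-fold lower in N2 than in EB. SALL4, a partner factor, was 3.19-fold lower (2892 in EB and 908 in N2). LIN28B, an inhibitor of let-7 maturation, was 2.39-fold lower (9472 in EB and 3963 in N2) on the only measured one of its 2 probe sets, which is marked as shared with related transcripts. NANOG was 1178 in EB and 1169 in N2 on its single probe set (1047 in ESC, 2145 in N1, 2155 in N3). That signal was lowest in ESC, unlike that of POU5F1. SOX2 and KLF4 were the higher members, and KLF4, also an epithelial and stress factor, was 6.99-fold higher on one probe set and 0.24 on the log2 scale on the other.

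Genes of the cell cycle and DNA replication were lower for 9 and higher for 3 of 44 measured genes (median -0.70, from -0.98 to -0.62 over the settings). CCNE1, the cyclin of entry into DNA synthesis, was 3.21-fold lower (2073 in EB and 647 in N2), and MCM3, part of the replication helicase, 2.73-fold lower (4646 in EB and 1704 in N2). CKS1B, a partner of cyclin-dependent kinases, was 2.97-fold lower (7603 in EB and 2559 in N2). All 3 higher members are inhibitors of cyclin-dependent kinases. CDKN1A was 3.57-fold higher (695 in EB and 2483 in N2), CDKN2C 3.43-fold higher and CDKN2D 2.83-fold higher (other probe set 0.88). CDKN2C, at 110.1 and 377 in EB and N2, had a log2 ratio of 0.92 with a floor of 200. MKI67, a marker of dividing cells, was 1911 in EB and 978 in N2, a log2 ratio of -0.97, with -0.54 and -0.92 on its other probe sets. The summed signal of the 45 genes with a probe set was 165708 in EB and 106455 in N2.

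Of insulin-like growth factor genes 3 of 16 measured members were higher and 1 lower (18.8% and 6.25%, beside 8.93% and 7.91% of all measured genes). IGF1, the ligand, was 10.2-fold higher (277 in EB and 2823 in N2; other probe set 2.90), and IGFBP4, which binds it, 2.73-fold lower (3297 in EB and 1205 in N2). PAPPA2, a protease of such binding proteins, was 6.71-fold higher (122 in EB and 818 in N2; other probe sets 1.23 and -0.76), and IGFBP2 2.17-fold higher (3608 in EB and 7834 in N2), but 0.85 on the log2 scale with equal medians. Of 16 measured imprinted genes 2 were higher, MAGEL2 (2.58-fold) and SGCE (2.03-fold), and 0 lower. The higher share, 12.5%, was near the 8.93% over all measured genes. SGCE fell under 2-fold with quantile normalisation, equal medians or hybridisation controls (log2 ratios of 0.94, 0.75 and 0.91). Glycolysis and hypoxia genes were higher for 5 and lower for 3 of 31 measured genes (16.1% and 9.68%, beside the same 8.93% and 7.91%). DDIT4, a stress-induced inhibitor of mTOR, was 4.58-fold higher (2151 in EB and 9847 in N2), and P4HA2, which hydroxylates collagen, 2.59-fold higher. Cholesterol synthesis (1 of 17 higher and 1 lower), interferon response (1 of 22 higher and 2 lower) and stress response genes (2 of 26 higher and 1 lower) held few members past 2-fold. Ribosomal protein genes were higher for 0 and lower for 1 of 33 measured members (median -0.09). Oxidative phosphorylation genes were past 2-fold for 2 of 33 measured members, both lower, yet their median was -0.64 and ranged from -0.91 to -0.43 over the settings. Their summed signal was 223585 in EB and 153365 in N2. The 2 lower ones were NDUFA9 and ATP5F1B. ATP5F1B had a log2 ratio of 0.79 on its other probe set, and its brightest stood at -0.92 with quantile normalisation.

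Among genes at 100 or more on both arrays, MAP6D1, which stabilises microtubules, had the largest difference at 149 in EB and 13185 in N2 (636 in ESC, 2557 in N1, 19826 in N3), 88.3-fold higher in N2 than in EB on its single probe set. Next were GNAO1, a G protein subunit abundant in brain (29.9-fold, 109.6 in EB and 3279 in N2), EBF1, GPM6A, INSM1 and COL12A1. ZPR1 followed at 20.6-fold, but its other probe set had a log2 ratio of -1.91. MYL1, TENM2, ZNF732, TMEFF2, ELAVL4, DNER, ELAVL2 and LOC699439, which RefSeq lists as a pseudogene, completed the 15 largest. TENM2, a teneurin of synapses, was 18.9-fold higher (other probe set 1.53). DNER, a transmembrane protein of neurons, was 125 in EB and 1902 in N2 (146 in ESC, 305 in N1, 5577 in N3). Of those 15 genes, ZNF732 was the brightest in EB, at 498, against 8494 in N2 and 16834 in N3.

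In the other direction the largest difference was LOC715831, listed by RefSeq as a pseudogene, at 13457 in EB and 169 in N2 (75.3 in ESC, 506 in N1, 62.8 in N3) (79.9-fold lower). FGG, CCKBR, PLA2G12B, KRT8, PDZK1, HAPLN1, MTTP, SLC51A, TMEM88, FGB, LCP1, APOM, CEBPA and MYL4 followed. CCKBR, the receptor of gastrin and cholecystokinin, was 2106 in EB and 138 in N2 (495 in ESC, 333 in N1, 68.3 in N3). PLA2G12B, which acts in lipoprotein secretion, was 15.1-fold lower (2895 in EB and 192 in N2; other probe set -3.11), and PDZK1, a scaffold of membrane transporters, 11.5-fold lower (8498 in EB and 737 in N2; other probe set -4.06). SLC51A carries bile acids out of cells and was 8.72-fold lower (1180.2 in EB and 135 in N2). TMEM88, an inhibitor of WNT signalling in heart precursors, was 8.17-fold lower (7835 in EB and 959 in N2), and LCP1, an actin bundler of white blood cells, 8.08-fold lower (other probe set -1.19). All 30 of these genes stayed past 2-fold in each of 9 other settings of scaling, floor and probe set. Without probe sets marked as shared with other transcripts 28 did so, and APOM and MYL4 had no value. The 30 genes were picked for the largest ratios in these same data, so the settings could hardly bring them under 2-fold. For genes with 1 probe set, such as MAP6D1, FGG and KRT8, the choice between probe sets changes nothing.

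Of the genes below the floor in EB, the brightest in N2 were SYT4, MYH3, NRN1, LHX9, MAB21L1, SCN3A, INHBA, CNTN5, ANO5 and ASPN. NRN1, a neuritin that promotes neurite growth, was 32.2 in EB and 2542 in N2, with 5688 in N3. MAB21L1, a gene of eye and midbrain development, was 42.9 in EB and 1789.6 in N2, and CNTN5, a contactin of axons, 84.2 in EB and 1625 in N2. ANO5, a membrane protein of muscle and bone, was 23.4 in EB and 1541 in N2. Of the genes below the floor in N2, the brightest in EB were ARG1, TNNC1, POU5F1, SMLR1, AMDHD1, ACSL5, LOC699676, CUBN, CHST13 and GLYCTK. AMDHD1, an enzyme of histidine breakdown, was 594 in EB and 73.8 in N2, and ACSL5, which activates fatty acids, 551 in EB and 19.4 in N2 (other probe set -2.27). SMLR1 was measured on 1 of its 3 probe sets.

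Of 1489 genes with at least 3 measured probe sets, 104 were at least 2-fold higher on the brightest and 80 at least 2-fold lower. All measured probe sets passed 2-fold in that direction for 21 and 18 of these, and the genes named next were picked for that. Ranked by their smallest ratio, the first 10 higher ones were SLITRK6, RBFOX1, PTN, DCLK1, DACH1, SOX11, ANKRD6, SULF1, NSG1 and TUBB3. SLITRK6, a neuronal membrane protein, had log2 ratios of 3.68, 2.76 and 4.26 (159.5 in EB and 2042 in N2 on its brightest probe set). RBFOX1, a splicing factor of neurons and muscle, had 3.15, 2.72 and 2.86, and stood at 167 in EB and 1477 in N2. DCLK1, a kinase related to DCX, had 3.66, 2.60 and 3.10. PTN, a growth factor of neural progenitors, had 2.92, 2.78 and 2.65, and stood at 857 in EB and 6508 in N2. DACH1, a cofactor of eye, limb and brain development, had 2.33, 2.38 and 2.0. The first 10 lower ones were HAPLN1, KRT19, APOE, PLG, DOK4, PPP1CA, PHB1, PON2, FGA and SAT1. DOK4, an adaptor of receptor tyrosine kinases, had log2 ratios of -1.92, -2.78 and -2.07 (8443 in EB and 2228 in N2). PHB1, a prohibitin of mitochondria, had -1.94, -1.47 and -1.49, and SAT1, which breaks down polyamines, had -1.34, -1.18 and -1.68.

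N3 against N1 shares no array with N2 against EB, although both come from 1 line of culture and N3 grew from N2. There 897 genes (8.42% of 10652 measured) were at least 2-fold higher in N3 and 710 (6.67%) lower. Among 10059 genes measured in both comparisons, 503 were higher in both, which is 54.5% of the 923 higher in N2 than EB and 58.5% of the 860 higher in N3 than N1. Lower in both were 310 genes, 38.5% of 806 and 44.7% of 694. Of the genes higher in N2 than EB, 18 were at least 2-fold lower in N3 than N1, and of those lower in N2, 1 was higher in N3. Genes such as MYH3, MYL1 and PAX6 were high in both N2 and N3, as their values above show, and TNNT2, at 1759 in N1, 864 in N2 and 2487 in N3, was not lower in the later pair.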

How the data were processed

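Total RNA of 5 culture stages was labelled with biotin and hybridised to Affymetrix rhesus arrays, 1 array for each stage, per the labels' protocols. The deposited values are array intensities on a linear scale, and GCOS 1.0 is named in the submitters' processing notes. Not given in the sources used here were its algorithm, its scaling target and any detection call. The 2% trimmed means of the deposited intensities over non-control probe sets were 199 on all 5 arrays. Each array was rescaled to 500, values under 100 were set to 100, and log2 was taken (Python 3.11.15, pandas 2.3.3). All 42 bacterial poly-A control probe sets stayed below 64.8 in EB and N2 or at that value, while the brightest foreign reporter control reached 105 in EB and 82.3 in N2. The number of arrays limits the precision.

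Of 52865 probe sets, 158 were controls, 24969 had 1 symbol in the platform annotation, which can be old, 361 had several and 27535 were not listed. The Entrez identifiers of 24629 single-symbol probe sets matched RefSeq, and 0 symbols differed. The 50 gene lists hold 1474 genes (1052 with a probe set, 831 measured), and 72 genes stand in more than 1 list. The members, lists and named-gene rule were chosen with earlier results of these data known.

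Named genes are the 15 largest differences each way with both signals at 100 or above and the brighter at 200 or above, the 10 brightest each way with the other side at the floor, up to 6 members of each list, a panel of 55 markers (44 with a probe set) and the 10 genes each way with at least 3 probe sets past 2-fold. Genes beyond this rule are marked in the text. Alternatives tried were a 4-fold threshold, 4 further ways of scaling, 3 further choices of probe set, log2(value + 1) without a floor, and floors at 50 or 200. The steps were tested on simulated data with known 4-fold changes in bright genes and noise below the spread between real probe sets. That checks the calculation, and not calls near 2-fold or at the floor. No sequences were used, and the promoter motifs that had been planned were not analysed here.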

Additional observations from a re-analysis of the deposited data

Results flagged for a closer look

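Probe sets that the platform annotation pairs with no gene symbol were not part of the comparison above, and they hold signal that differs between EB and N2. Of 26716 such probe sets, controls and those with names starting with NC- left out, 11391 passed the floor in EB or N2. Of these, 1733 (15.2%) were at least 2-fold higher in N2 and 427 (3.75%) at least 2-fold lower. Among 16701 measured probe sets with 1 symbol the shares were 8.47% higher and 8.22% lower. The shares of unnamed probe sets were 10.2% higher and 6.78% lower with equal medians, against 5.79% and 15.1% for those with 1 symbol. Among probe sets whose brighter signal lay from 500 to 2000, 22.0% of 3210 unnamed ones were higher and 4.74% lower, against 9.99% and 10.3% of 5684 with 1 symbol. What the unnamed probe sets measure was not established, and their difference from the named ones was not tested. Of 674 probe sets with names starting with NC-, 21 were measured, and 0 passed 2-fold.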

How the results depend on the processing

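No test exists with 1 array for each stage, so counts and ratios are followed here. With a 4-fold threshold 228 genes were higher and 87 lower, and with equal medians 1583 were lower; under the other alternatives both counts stayed within 1.5 times those in the report, from 662 to 1243 higher and from 670 to 1048 lower. Of the 926 higher genes 349 passed 2-fold in each of 9 settings (4 scalings, 3 floors and 2 choices of probe set) and 629 in each of the 4 scalings, and of the 820 lower genes 446 and 755 did so. Of 236 named genes past 2-fold, 171 did so in each of the 9 settings. The ratio turned for COL15A1, from -1.18 to 0.017, and for ST14, from 1.98 to -0.32, when the median signal over all probe sets of a gene was taken on each array. That median can fall on different probe sets in EB and N2 and counts probe sets below the floor. Of 44 named calls lost under it, 14 were of genes with 1 measured probe set. The list medians that changed sign under a setting lay between -0.14 and 0.27. No paired analysis was possible because each stage has 1 array. Genes near 100 lie close to the background of the arrays, and the ratios of the dimmest ones are set by the floor.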

Other observations

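Some gene families outside the lists were counted by symbol. The shares over all measured genes were 8.93% higher and 7.91% lower. Solute carrier genes were higher for 23 and lower for 24 of 183 measured genes (median -0.09), the lower ones led by SLC51A and by SLC5A12, a sodium-coupled carboxylate transporter (7545 in EB and 1339.7 in N2), and the higher ones by SLC1A2 and by SLC10A4, a transporter of synaptic vesicles (127 in EB and 721 in N2). Histone genes were lower for 5 and higher for 1 of 21 measured genes, with H2AJ 4.28-fold lower (2005 in EB and 468 in N2). Of zinc finger genes with ZNF symbols 10 of 219 measured members were higher (4.57%), led by ZNF732, and 3 lower (1.37%). Both shares lay below those over all measured genes. Among interleukin and chemokine genes and their receptors, 4 of 45 measured members were higher (8.89%) and 3 lower (6.67%), near the shares over all measured genes. IL1B, an inflammatory cytokine, was at least 11.1-fold higher on its brightest probe set (40.8 in EB and 1109 in N2). Its other probe sets had log2 ratios of 0.27 and 1.38. Genes in this paragraph other than SLC51A, SLC1A2 and ZNF732 were named after their values were seen.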
